A study of Homo sapiens with 4 samples.

Results

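Ephrins, semaphorins and their receptors were followed in 4 RNA-seq libraries of MRC5, an established fibroblast line from human fetal lung. Libraries fell into 2 groups of 2, both wild type and both with 48 h in their titles: cells treated with miRs (microRNAs, short RNAs that lower messenger RNAs with matching stretches) and control cells labelled as having no treatment. The labels do not name the microRNAs, and the series title speaks of a negative-control microRNA, so whether the control cells were transfected is not known. Members were all genes whose symbol belongs to the ephrins (EFNA, EFNB), the Eph receptors (EPHA, EPHB), the semaphorins (SEMA3 to SEMA7), the plexins (PLXN) and the neuropilins (NRP). This gave 53 of the 26255 genes in the files: 8 ephrins, 14 Eph receptors, 20 semaphorins, 9 plexins and 2 neuropilins.

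Ephrins sit on the cell surface, the A type on a lipid anchor and the B type with a transmembrane and intracellular part. They bind Eph receptor tyrosine kinases on neighbouring cells, and signals run into both cells, mostly to repel or sort them. Semaphorins signal through plexins, whose intracellular part switches off small GTPases of the Ras family and so loosens adhesion. Class 3 semaphorins are secreted and mostly need a neuropilin as a co-receptor, while the other classes are held in the membrane. Known first as guidance cues of growing axons, these families also act in vessels, epithelia and the mesenchyme of the lung.

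Levels are in FPKM, a read measure adjusted for transcript length and library size, and can therefore be compared between genes. Between 11622 and 11781 genes per library reached 1 FPKM. The 2 miRs libraries were less alike than the 2 controls (Pearson's r across genes of log2(FPKM + 1) 0.949 and 0.985). The labels do not state separate cultures for the replicates, and a p-value here reflects only how far these particular libraries spread, possibly for technical reasons. In bulk RNA, fewer cells of a type and less RNA per cell cannot be told apart. All 14 fibroblast markers were tested, and COL1A1 and VIM, fixed as checks of the cell type, were at 1910 and 4742 FPKM (COL1A1) and 2598 and 2249 FPKM (VIM) in miRs, against 2337 and 2521 FPKM (COL1A1) and 3697 and 3170 FPKM (VIM) in control. The list as a whole had a median log2 difference of -0.27, and no marker had an adjusted p under 0.05 in limma. Without overlap 7 markers were lower and 1 higher in miRs, beside 30.0% and 29.5% of all tested genes. At an unadjusted p under 0.05 in limma 5 were lower and 1 higher, beside 13.0% and 11.2% of all tested genes. DCN, LUM, THY1 and FAP had means 2.84-fold, 2.496-fold, 2.04-fold and 3.27-fold lower in miRs, and the part of this in the values of the members was not tested.

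The minimum for the test, a 4-library mean of 1 FPKM, was reached by 32 of the 53 members: 5 ephrins, 5 Eph receptors, 13 semaphorins, 7 plexins and both neuropilins. Of these 32, 28 were at 1 FPKM or more in every library and 29 had both group means at 1 FPKM or more. PLXNA2 and EFNB3 passed only through their miRs values and SEMA6A only through its control values. The other 21 members had means of at most 0.984 FPKM (EPHB1), and EPHA6, EPHA8 and SEMA5B were listed at 0 in all 4 libraries. The set was led by plexin-B2 (PLXNB2), SEMA7A, NRP1, SEMA3F, SEMA3A and EPHA2, in that order of mean level, and it was thus made up of receptors and ligands side by side.

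**Figure D1:**
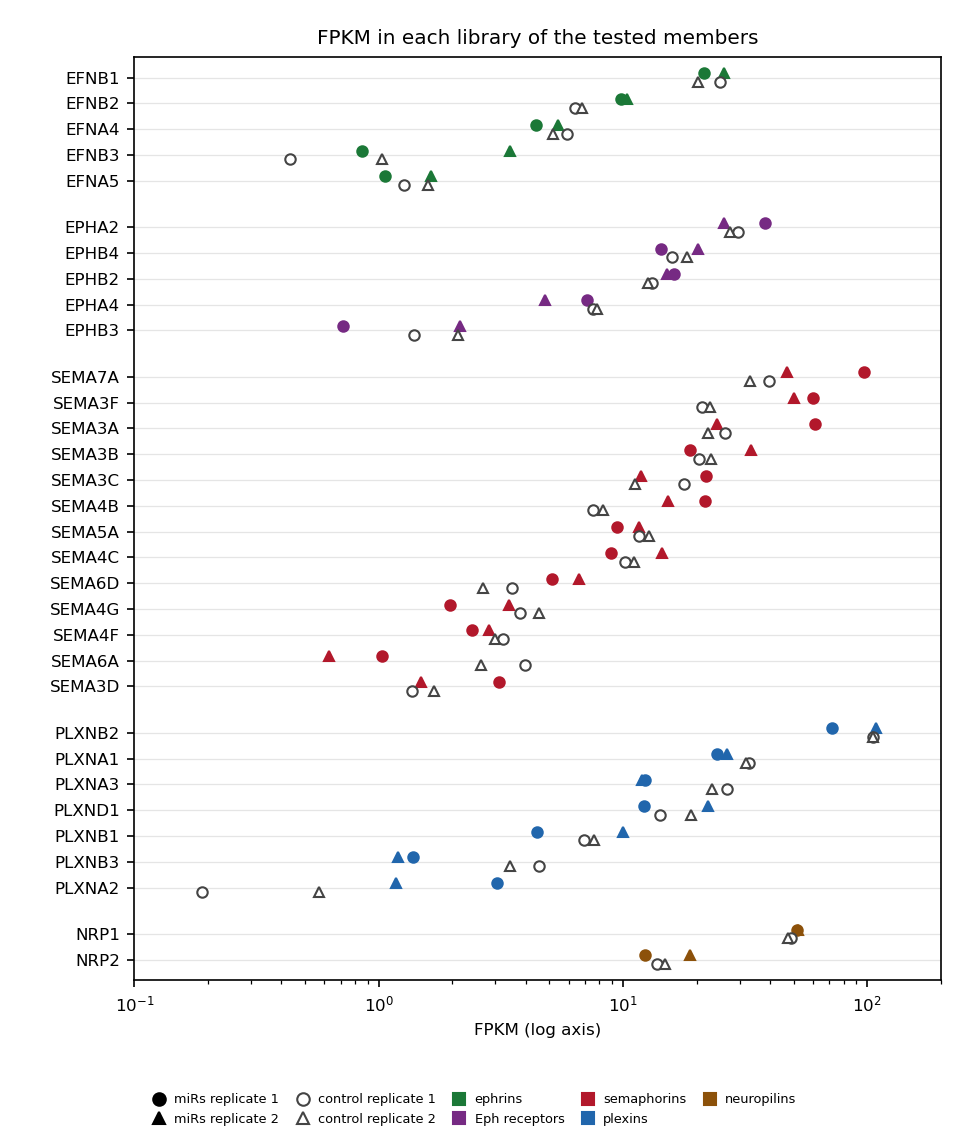
FPKM (log axis) of the 32 tested members in each library, with filled symbols for miRs and open symbols for control, circles for replicate 1 and triangles for replicate 2, ordered by family and mean level. SEMA3F and SEMA4B lie to the right of their controls and PLXNA3, PLXNB3 and SEMA6A to the left in both miRs libraries, while SEMA3A, SEMA7A and PLXNB1 differ widely between the 2 miRs libraries.

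The summed level of the semaphorins was higher in miRs and that of the plexins lower, with no test of either sum. The summed level of the 20 semaphorins was 315 and 226 FPKM in miRs replicates 1 and 2, against 173 and 161 FPKM in control replicates 1 and 2. The 9 plexins summed to 130 and 183 FPKM in miRs, against 191 and 192 FPKM in control. The groups did not overlap for either family, though miRs replicate 2 came close to the controls for plexins. SEMA7A, SEMA3F and SEMA3A, the 3 genes with the largest differences of means, made up 84.6% of the semaphorin difference. Of the 13 tested semaphorins, 4 were higher and 4 lower in miRs without overlap, and of the 7 tested plexins 1 was higher and 3 were lower. SEMA6A, among the lower semaphorins, and PLXNA2, the higher plexin, entered the test only through the group where each was high. Over all tested genes 29.5% were higher and 30.0% lower without overlap. Ephrins summed to 38.9 and 49.7 FPKM in miRs and 40.0 and 35.6 FPKM in control, so the groups overlapped. For Eph receptors the sums were 78.5 and 70.5 FPKM in miRs and 68.5 and 69.7 FPKM in control, a small gap. Neuropilins summed to 63.9 and 70.8 FPKM in miRs and 62.3 and 62.3 FPKM in control. Over all 53 members the sum was 1.16 times as high in miRs (626 and 599 FPKM) as in control (535 and 521 FPKM). With 2 libraries against 2, an exact permutation test of a single sum cannot go below p = 0.333, so none is given.

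**Figure D2:**
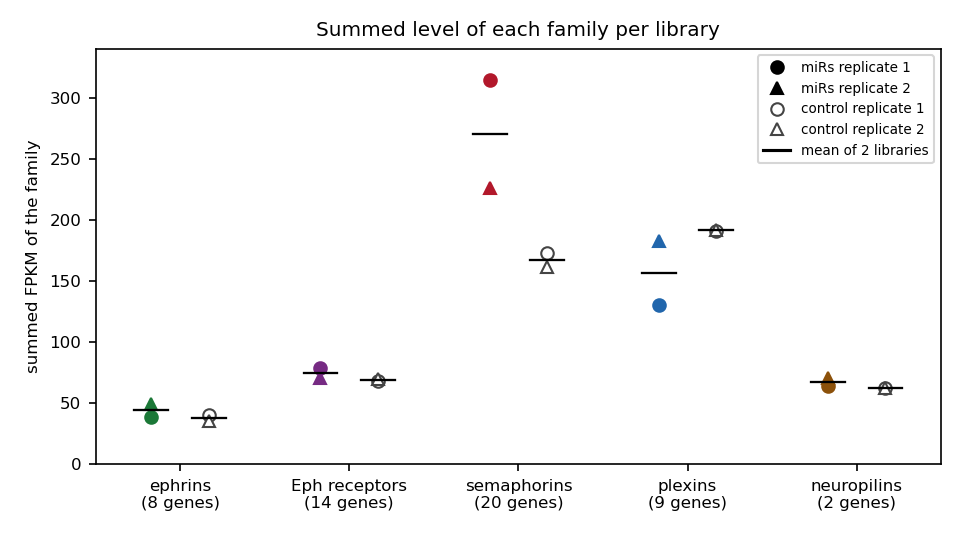
Summed FPKM (linear axis from 0) of all members of each family in each library, miRs left of control, with the mean of the 2 libraries as a line. The semaphorin sums are 315 and 226 FPKM in miRs against 173 and 161 FPKM in control, and the plexin sums are 130 and 183 FPKM against 191 and 192 FPKM.

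No single member passed the test. In limma, 0 of the 32 tested members had an adjusted p under 0.05, where 0.245% of all 11860 tested genes did (29). An unadjusted p under 0.05 was reached by 9 members, against 24.2% of all tested genes. Of the 9, 5 were higher in miRs (11.2% of all tested genes) and 4 lower (13.0%). PLXNA2, among the 5, and SEMA6A, among the 4, passed the minimum only through the group where each was high. Their direction lends no support to these counts or to those that follow. In 16 members the groups did not overlap, 8 higher and 8 lower in miRs. Over all tested genes 59.5% did not overlap, 29.5% higher and 30.0% lower, so the share among members was near the background. At an adjusted p under 0.1, a threshold chosen after seeing the data, there were 5 members (SEMA3F and SEMA4B higher, PLXNA3, PLXNB3 and SEMA6A lower), beside 7.20% of all tested genes (2.93% higher and 4.27% lower). Tested members had a median log2 difference of 0.08, and all tested genes one of -0.00. By family, the members' median was 0.20 for semaphorins, 0.06 for ephrins, -0.00 for Eph receptors, 0.10 for neuropilins and -0.26 for plexins.

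These counts depended on single libraries. Without miRs replicate 2, the remaining miRs library being assumed to vary like the controls, 14 members passed 0.05 in limma, as did 31.6% of all tested genes. Without miRs replicate 1 there were 7 members and 13.9% of all genes. SEMA3F and SEMA4B (higher) and PLXNA3, PLXNB3 and SEMA6A (lower) passed in both of these fits. Without control replicate 1 or without control replicate 2 no member passed in limma, with 6 at an unadjusted p under 0.05 in each of those fits, beside 7.47% (without control replicate 1) and 7.98% (without control replicate 2) of all tested genes. Of all genes 0 and 1 passed an adjusted p of 0.05 there.

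**Figure D3:**
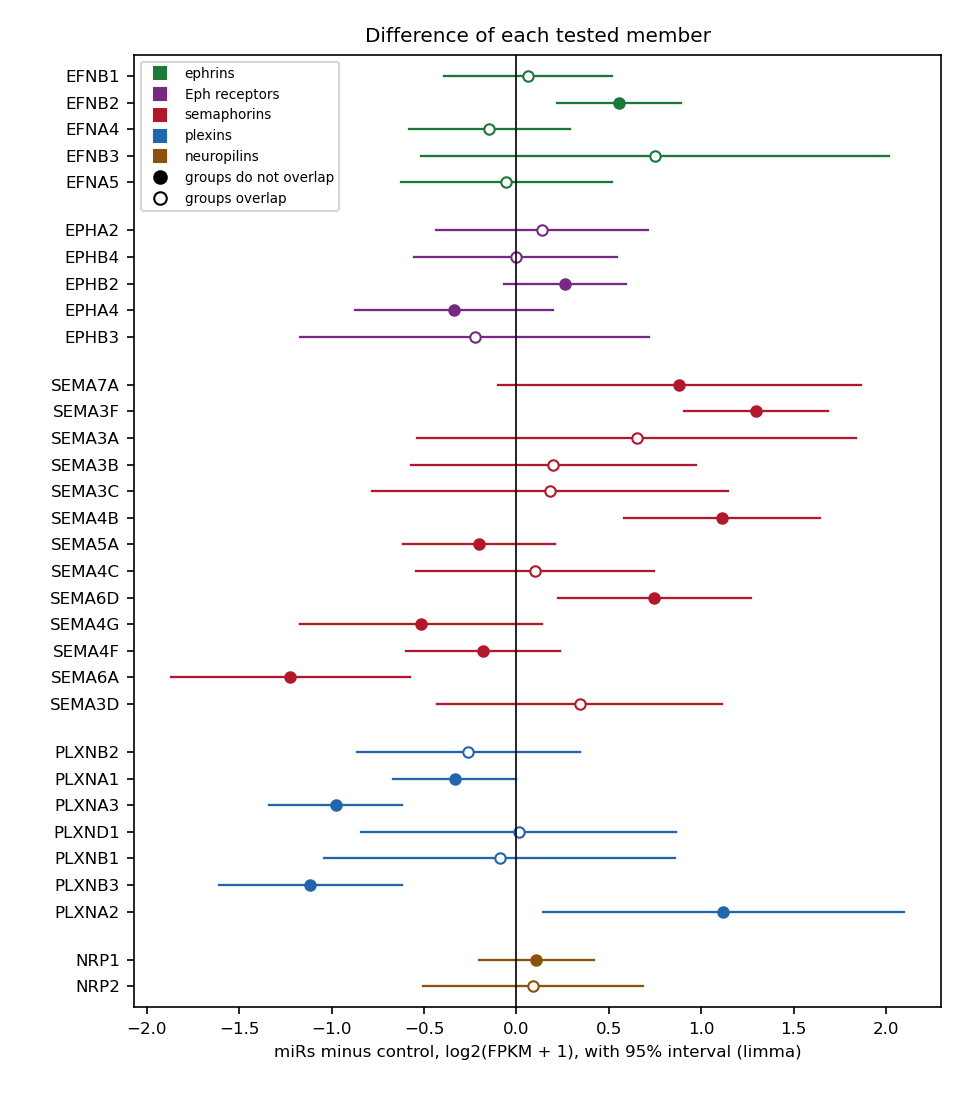
Difference of each tested member (miRs minus control on the log2(FPKM + 1) scale) with its 95% interval from limma, filled where the groups do not overlap, by family and mean level. The intervals of SEMA3F, SEMA4B, SEMA6D, EFNB2 and PLXNA2 lie above 0 and those of PLXNA3, PLXNB3, SEMA6A and PLXNA1 below 0, with no adjustment for the number of genes tested.

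Among the ligands, the clearest difference was in SEMA3F, a secreted repellent that signals through neuropilin-2. SEMA3F was at 60.1 and 50.3 FPKM in miRs replicates 1 and 2, against 21.0 and 22.7 FPKM in control replicates 1 and 2. Both miRs libraries lay far above both controls, and the mean was 2.53-fold higher. The log2 difference was 1.30 ± 0.15 (SE, n = 2 each), with an adjusted p of 0.0632 in limma. In fits that left out 1 library the log2 difference ranged from 1.17 to 1.42. Its direction could not turn there, since the groups do not overlap.

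SEMA4B, a transmembrane semaphorin of class 4, was at 21.7 and 15.3 FPKM in miRs and 7.52 and 8.30 FPKM in control. Its mean was 2.34-fold higher in miRs (log2 difference 1.11 ± 0.20, adjusted p = 0.0863 in limma). SEMA6D, a transmembrane ligand of plexin-A1, was at 5.12 and 6.63 FPKM in miRs and 3.53 and 2.67 FPKM in control (log2 difference 0.75 ± 0.20, adjusted p = 0.129 in limma). The groups did not overlap for either gene, and the gap was wider for SEMA4B.

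SEMA6A went the other way. This transmembrane ligand, which binds plexin-A2 and plexin-A4 in mouse, was at 1.03 and 0.626 FPKM in miRs and 3.97 and 2.63 FPKM in control. Its mean was 3.98-fold lower in miRs, a log2 difference of -1.22 ± 0.24 (adjusted p = 0.0925 in limma). It entered the test only through its control values, so its place among the lower members lends no support to their count. The 2 controls were themselves 1.51-fold apart. Exons of SEMA6A overlap those of SEMA6A-AS1 on the opposite strand, which was at 0.579 and 0.441 FPKM in miRs and 1.82 and 0.564 FPKM in control. SEMA4G was at 1.95 and 3.41 FPKM in miRs and 3.79 and 4.55 FPKM in control (log2 difference -0.51, adjusted p = 0.285 in limma). Its annotated exons overlap those of MRPL43 on the opposite strand, a gene at 44.4 and 47.6 FPKM in miRs and 65.4 and 63.3 FPKM in control. The strand setting of the counting is not known, so reads of SEMA4G and MRPL43, and likewise of SEMA6A and its antisense gene, may not have been told apart.

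SEMA7A and SEMA3A were high in 1 miRs library. SEMA7A, held on the membrane by a lipid anchor and able to bind plexin-C1 and integrin beta-1, was the most abundant semaphorin, at 97.1 and 46.7 FPKM in miRs replicates 1 and 2, against 39.6 and 33.1 FPKM in control. The groups did not overlap, but the difference was 1.40 (log2) in miRs replicate 1 and 0.36 in miRs replicate 2 (fitted 0.88 ± 0.37, adjusted p = 0.241 in limma). SEMA3A, the secreted repellent that signals through neuropilin-1, was at 60.8 and 24.2 FPKM in miRs, against 26.3 and 22.3 FPKM in control. Here the second miRs library lay between the 2 controls (fitted log2 difference 0.65 ± 0.45, adjusted p = 0.421 in limma). Without miRs replicate 1 the log2 difference of SEMA3A was 0.00 and that of SEMA7A 0.36.

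The other 6 tested semaphorins had smaller differences. SEMA4C, a transmembrane ligand of plexin-B2, was at 8.97 and 14.5 FPKM in miRs and 10.1 and 11.05 FPKM in control. SEMA5A, which carries thrombospondin repeats, was at 9.41 and 11.6 FPKM in miRs and 11.6 and 12.7 FPKM in control, so the groups lay side by side with almost no gap. The 95% intervals of their log2 differences ran from -0.55 to 0.74 for SEMA4C and from -0.61 to 0.21 for SEMA5A. SEMA3B, SEMA3C, SEMA3D and SEMA4F had log2 differences from -0.18 to 0.34, with adjusted p from 0.511 to 0.787 in limma.

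On the receptor side, plexin-A3 (PLXNA3), which serves class 3 semaphorins together with neuropilins, was lower in both miRs libraries. PLXNA3 was at 12.3 and 11.98 FPKM in miRs and 26.7 and 23.2 FPKM in control. The 2 miRs libraries were nearly equal and both far below the controls. The mean was 2.06-fold lower, the log2 difference -0.98 ± 0.14 and the adjusted p 0.0680 in limma. Its exons overlap those of LAGE3 on the opposite strand, a gene at 7.91 and 9.81 FPKM in miRs and 9.34 and 9.24 FPKM in control.

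Plexin-B3 (PLXNB3), a receptor for SEMA5A, was at 1.39 and 1.204 FPKM in miRs and 4.54 and 3.46 FPKM in control. The groups were well apart, with a log2 difference of -1.12 ± 0.19 and an adjusted p of 0.0841 in limma. Plexin-A1 (PLXNA1), the partner of neuropilins in many cells, was at 24.2 and 26.6 FPKM in miRs and 32.7 and 31.9 FPKM in control. This smaller gap, a log2 difference of -0.34 ± 0.13, had an adjusted p of 0.206 in limma. Plexin-A2 (PLXNA2) was the exception among the tested plexins whose groups did not overlap, at 3.05 and 1.18 FPKM in miRs and 0.190 and 0.568 FPKM in control. Its log2 difference was 1.12 ± 0.37 (adjusted p = 0.172 in limma), and the libraries of each group were 2.59-fold (miRs) and 2.99-fold (control) apart. It entered the test only through its miRs values, so its place among the higher members lends no support to their count. PLXNA4 and PLXNC1, both below the minimum for the test, were also higher in miRs without overlap. PLXNA4 was near 0, at 0.170 and 0.164 FPKM in miRs and 0.0128 and 0.0268 FPKM in control. With no minimum FPKM, 13 of 50 members were higher and 13 lower without overlap, beside 25.7% and 25.4% of all genes then tested.

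PLXNB2, a receptor of class 4 semaphorins, was the most abundant of all 53 genes. It was at 71.4 and 109 FPKM in miRs replicates 1 and 2 and 105 and 106 FPKM in control. It made up 54.9% and 59.4% of the plexin sum in miRs and 55.2% and 55.2% in control. The miRs library with the low value was replicate 1, and the log2 difference was -0.26 with a 95% interval from -0.87 to 0.34. PLXND1, a receptor for SEMA3E, and PLXNB1, a receptor for SEMA4D, had log2 differences of 0.01 and -0.09, with wide 95% intervals from -0.84 to 0.86 (PLXND1) and from -1.04 to 0.86 (PLXNB1).

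The neuropilins showed little difference between the groups. NRP1, co-receptor for SEMA3A and for vascular endothelial growth factor, was at 51.6 and 52.0 FPKM in miRs and 48.5 and 47.4 FPKM in control. Its log2 difference was 0.11 ± 0.12 (adjusted p = 0.606 in limma), with a 95% interval from -0.20 to 0.42. NRP2, co-receptor for SEMA3F, was at 12.4 and 18.8 FPKM in miRs and 13.8 and 14.9 FPKM in control, with both controls between the miRs libraries. Its 95% interval ran from -0.51 to 0.68 (log2).

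Ephrin-B2 (EFNB2), the transmembrane ligand of EPHB4, was the one tested ephrin whose groups did not overlap. EFNB2 was at 9.86 and 10.4 FPKM in miRs and 6.38 and 6.78 FPKM in control. The replicates lay close together in both groups, and the mean was 1.54-fold higher in miRs (log2 difference 0.55 ± 0.13, adjusted p = 0.107 in limma). Ephrin-B1 (EFNB1), the most abundant ephrin, was at 21.5 and 25.9 FPKM in miRs and 24.9 and 20.4 FPKM in control, with no separation. Of the lipid-anchored ephrins, EFNA4 was at 4.39 and 5.43 FPKM in miRs and 5.91 and 5.15 FPKM in control. EFNA5 was at 1.06 and 1.64 FPKM in miRs and 1.26 and 1.60 FPKM in control. EFNB3 was at 0.856 and 3.44 FPKM in miRs and 0.436 and 1.03 FPKM in control, and EFNA1, below the minimum, at 0.433 and 2.35 FPKM in miRs and 0.241 and 0.126 FPKM in control. In both of these genes the high library was miRs replicate 2.

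Differences among the Eph receptors were small. EPHA2, the main A-type receptor here and a binder of EFNA1, was at 38.2 and 25.9 FPKM in miRs and 29.6 and 27.5 FPKM in control. EPHA4, which binds ephrins of both types, was at 7.13 and 4.81 FPKM in miRs and 7.55 and 7.83 FPKM in control (log2 difference -0.34, adjusted p = 0.368 in limma). EPHB4, the receptor of EFNB2, was at 14.3 and 20.2 FPKM in miRs and 15.8 and 18.4 FPKM in control. EPHB2 was at 16.3 and 15.1 FPKM in miRs and 13.2 and 12.6 FPKM in control. For EPHB2 and EPHA4 the groups did not overlap, while both controls of EPHA2 and of EPHB4 lay between the miRs libraries. The log2 difference of EPHB2 was 0.26 ± 0.13 (adjusted p = 0.279 in limma), and the 95% interval of EPHB4 ran from -0.55 to 0.55. EPHB3 had the lowest mean of the 5 tested receptors, with a log2 difference of -0.23.

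The 2 miRs libraries disagreed on many of these genes. In 16 of the 32 tested members they were over 1.5-fold apart, beside 24.6% of all tested genes, against 5 members and 5.89% of all tested genes for the 2 controls. Of the 16, 6 were higher in miRs replicate 1 (PLXNA2, SEMA3A, SEMA3C, SEMA3D, SEMA6A and SEMA7A) and 10 in miRs replicate 2 (EFNA5, EFNB3, EPHB3, NRP2, PLXNB1, PLXNB2, PLXND1, SEMA3B, SEMA4C and SEMA4G). Set against the control mean, the median of the tested members was -0.20 (log2) for miRs replicate 1 and 0.16 for the other miRs library. For semaphorins it was 0.59 and 0.00, and for plexins -0.56 and 0.04.

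**Figure D4:**
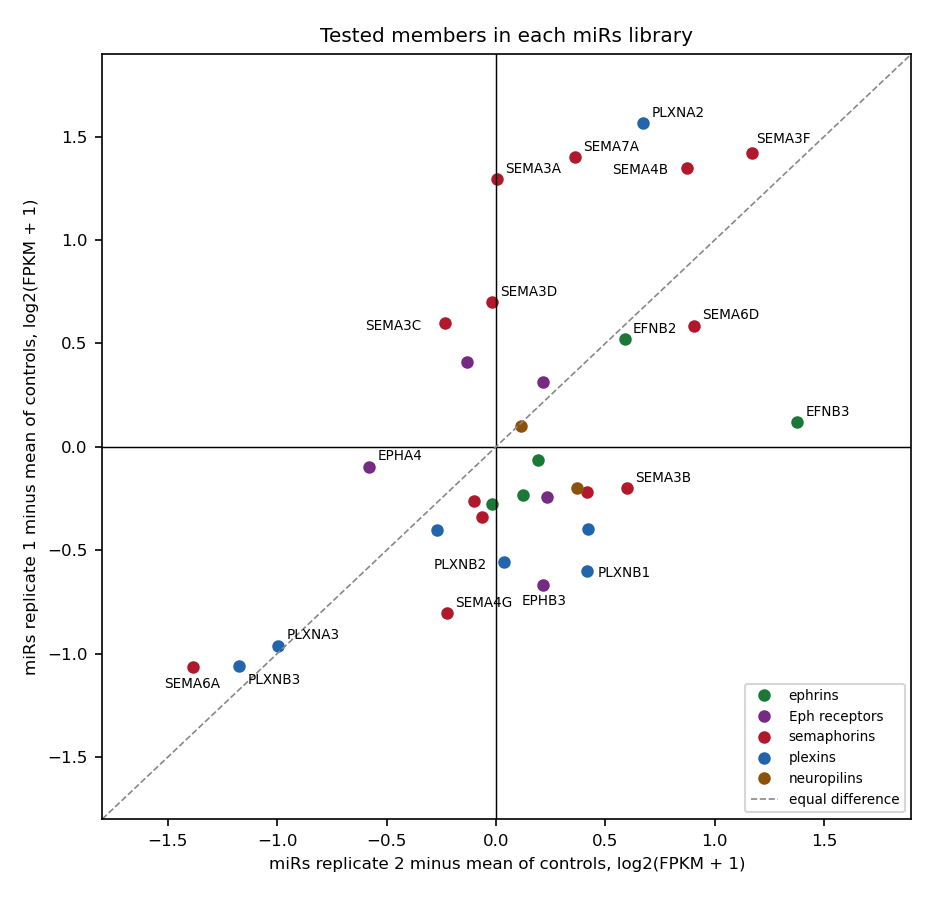
Difference of each tested member from the mean of the controls (log2(FPKM + 1) scale) in miRs replicate 1 (vertical) against miRs replicate 2 (horizontal), with members named where either is at least 0.5 in size and a dashed line where both are equal. SEMA3F, SEMA4B and EFNB2 lie at upper right and PLXNA3, PLXNB3 and SEMA6A at lower left, while SEMA3A and SEMA7A, at 1.30 and 1.40 in miRs replicate 1, are at 0.00 and 0.36 in miRs replicate 2.

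The interferon response differed between the same 2 libraries. Its 24 listed genes were all tested and all higher in miRs without overlap, beside 29.5% of all tested genes. All were higher at an unadjusted p under 0.05 in limma, beside 11.2% of all tested genes, and none had an adjusted p under 0.05. MX2, IFI44L, ISG20, OAS1, OAS2, OASL, RSAD2, IFIH1, CMPK2 and XAF1 passed the minimum only through their miRs values, so their direction lends these counts no support. The 24 genes summed to 11621 and 2368 FPKM in miRs replicates 1 and 2, against 157 and 191 FPKM in control. The library with the larger interferon sum was thus the one in which SEMA3A, SEMA7A, SEMA3C, SEMA3D and SEMA6A were over 1.5-fold higher. SEMA6A nonetheless lay below both controls in both miRs libraries. SEMA3B, SEMA4C and SEMA4G were over 1.5-fold higher in miRs replicate 2. Of the members over 1.5-fold apart between the miRs libraries, 6 were higher in replicate 1 and 10 in replicate 2. The part of the interferon response in the semaphorin values was not tested. Epithelial markers were also higher in both miRs libraries, as were SEMA3F and SEMA4B: the 16 markers summed to 201 and 269 FPKM in miRs and 30.5 and 32.7 FPKM in control. Of these 16, 5 were tested and all 5 were higher in miRs without overlap, beside 29.5% of all tested genes. CLDN4 and CLDN7, among the 5, passed the minimum only through their miRs values, so their direction lends this count no support. KRT5, CLDN3, ESRP1 and GRHL2 were listed at 0 in all 4 libraries. KRT18 and KRT19 passed an adjusted p of 0.05 in limma (0.0354 for both), and KRT18, at 137 and 194 FPKM in miRs and 17.7 and 19.4 FPKM in control, made up most of the sum. EPCAM was at 1.07 and 1.61 FPKM in miRs against 0 and 0.228 FPKM in control, and CDH1 was listed at 0 in both miRs libraries. Their part was not tested either.

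Endothelial and blood cells also use ephrins, neuropilins and plexins. The endothelial genes PECAM1 and CDH5 were at most 0.0188 FPKM in any library, and the 14 endothelial markers summed to 25.5 and 15.6 FPKM in miRs and 22.0 and 18.8 FPKM in control, mostly TEK and EGFL7. Of the 3 tested endothelial markers, ESAM was higher without overlap, at 3.68 and 1.62 FPKM in miRs and 0.296 and 0.310 FPKM in control, while the groups of the other two overlapped. Its part in the values of the members was not tested. Of the 14 blood markers 6 were listed at 0 throughout, with sums of 144 and 54.0 FPKM in miRs and 73.1 and 75.7 FPKM in control that came almost wholly from CD68 and CD4. Neuronal markers summed to 94.1 and 82.2 FPKM in miRs and 195 and 184 FPKM in control, nearly all of it the tubulin TUBB3, while 5 of the 14, DCX and RBFOX3 among them, were listed at 0 throughout.

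MicroRNAs bind mostly in 3′ UTRs through their seed, bases 2 to 8 from the 5′ end. Over the 10802 tested genes with an annotated 3′ UTR, 2 words of 7 bases ranked first and second of 15782 for going with a lower level in miRs. These were GCACTTA and AGCACTT, of which the second pairs with the whole seed AAGUGCU, shared by 12 mature human microRNAs. The first pairs with bases 2 to 7 only, and its last base lies opposite base 1. The seed was chosen after these ranks were seen and with its family already in mind, so the rank is a description, and it names none of the microRNAs used. Genes with GCACTTA had a median log2 difference of -0.11 and those without it 0.01, and genes with AGCACTT had -0.05 and those without it 0.02. Of the microRNAs with this seed, 3 are shown with it in capitals:
hsa-miR-302a-3p: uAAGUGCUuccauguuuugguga
hsa-miR-372-3p: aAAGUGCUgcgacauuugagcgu
hsa-miR-373-3p: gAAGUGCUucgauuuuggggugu

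At least 1 of the 2 words was found in the 3′ UTR of 10 of the 32 tested members (31.3%), near the 29.04% of all tested genes with a UTR. PLXNA3 was the member with most, with 4 copies of AGCACTT. At least that number was found in 0.926% of tested genes with a UTR, a share not matched for UTR length. The stretches around the first and the last of them are shown 5′ to 3′ with the word in capitals, at bases 524 and 4747 after the stop codon of a UTR of 5094 bases. In GRCh38 they lie on the plus strand at chrX:154473201-154473223 and chrX:154477424-154477446:
PLXNA3 first: gtaccagcAGCACTTggggtgag
PLXNA3 last: attgccccAGCACTTtcttcact

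Members with the word lay on both sides. PLXNA1, lower in miRs, has 1 copy (GRCh38 chr3:127036458-127036480, plus strand), and EFNB2, higher in miRs, also has 1 (chr13:106492202-106492224, minus strand). EPHA2 (chr1:16124977-16125000, minus strand) and SEMA3C (chr7:80744147-80744170, minus strand), whose groups overlapped, each hold both words in 1 stretch of 8 bases. SEMA5A, lower in miRs without overlap but with almost no gap, also holds such a stretch. The stretches of PLXNA1, EFNB2, EPHA2 and SEMA3C are shown for comparison with those of PLXNA3:
PLXNA1: taggcgcaAGCACTTtagcagta
EFNB2: ggtagcacAGCACTTtggttttg
EPHA2: cacagctgAGCACTTAgcaggcac
SEMA3C: caaacaaaAGCACTTActtttttt
The 10 members with a word had a median log2 difference of 0.04 and the 22 without one 0.08, and their median UTR lengths were 3510 and 1410 bases. Of the 8 members lower in miRs without overlap 4 had a word, and of the 8 higher ones 2 did. SEMA6A and PLXNB3, both lower, had neither word in these UTRs.

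**Figure D5:**
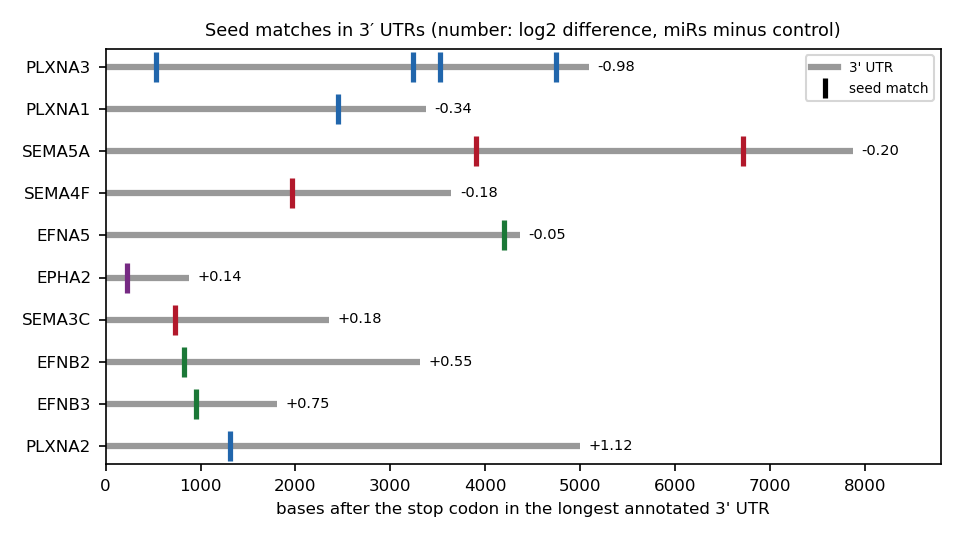
Positions of the 2 words (coloured ticks) in the longest annotated 3′ UTR (grey bars, in bases after the stop codon) of the 10 tested members that have one, ordered by log2 difference (number at the right, miRs minus control), lowest at the top. PLXNA3 has 4 ticks, SEMA5A 2 and the other members 1 each.

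In promoters 1 motif was searched. The E-box CACCTG, read on both strands (the reverse complement is CAGGTG), is bound by ZEB and SNAI repressors. It was found between 250 bases before and 50 bases after a start in 7 of the 28 tested members with a promoter sequence (25.0%), against 22.4% of all tested genes and 17.4% of single promoters of the same length. Among the 7 members with it, EFNB2, EPHB2 and SEMA3F were higher in miRs without overlap and PLXNB3 and SEMA4F were lower. Promoters of SEMA3F (GRCh38.p14 chr3:50154808-50155107, plus strand) and PLXNB3 (chrX:153763999-153764298, plus strand) are shown as 1 higher and 1 lower gene, with the E-box in capitals:
SEMA3F: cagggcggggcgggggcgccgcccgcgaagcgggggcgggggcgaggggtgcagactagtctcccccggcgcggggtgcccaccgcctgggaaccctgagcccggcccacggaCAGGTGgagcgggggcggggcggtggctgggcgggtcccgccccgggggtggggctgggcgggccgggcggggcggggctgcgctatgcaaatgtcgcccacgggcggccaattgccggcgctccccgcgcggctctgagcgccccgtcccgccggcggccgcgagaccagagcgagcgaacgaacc
PLXNB3: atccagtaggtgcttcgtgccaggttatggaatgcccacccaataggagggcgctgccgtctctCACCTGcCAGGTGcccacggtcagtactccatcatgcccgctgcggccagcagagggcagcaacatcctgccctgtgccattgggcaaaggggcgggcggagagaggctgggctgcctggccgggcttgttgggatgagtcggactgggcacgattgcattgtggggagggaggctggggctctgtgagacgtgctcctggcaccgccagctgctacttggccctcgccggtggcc
The E-box of SEMA3F starts 137 bases before the annotated start, and those of PLXNB3 start 186 and 179 bases before it, on opposite strands and 1 base apart. The promoters differ in CpG content, with 44 CpG in SEMA3F and 15 in PLXNB3.

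Genes for partners of semaphorin and plexin signalling were more often lower than higher in miRs where the groups did not overlap. These partners include ligands and surface receptors as well as proteins inside the cell. From a list of 39 such partners 29 were tested, and 12 were lower and 7 higher without overlap, beside 30.0% and 29.5% of all tested genes. None passed an adjusted p of 0.05 in limma, 9 had an unadjusted p under 0.05 (8 lower, beside 13.0% of all tested genes, and 1 higher, beside 11.2%), and the list's median log2 difference was -0.13. The small GTPase RRAS, on which plexins act, was at 63.4 and 65.2 FPKM in miRs and 123 and 125 FPKM in control (log2 difference -0.94 ± 0.12, adjusted p = 0.0656 in limma). The libraries of each group lay close together and the groups far apart. ARHGEF12, which binds B-type plexins, was at 16.9 and 16.9 FPKM in miRs and 29.8 and 29.1 FPKM in control (adjusted p = 0.0769). MICAL1, an oxidase of actin that binds plexin-A proteins, was at 9.51 and 12.2 FPKM in miRs and 19.5 and 22.9 FPKM in control (adjusted p = 0.0914). ERBB2, a receptor kinase found with plexin-B1, was at 14.2 and 17.6 FPKM in miRs and 26.3 and 28.1 FPKM in control (adjusted p = 0.0964). All 4 had groups that did not overlap. The partner higher at an unadjusted p under 0.05 was RRAS2, a relative of RRAS, at 45.7 and 57.2 FPKM in miRs and 33.9 and 28.3 FPKM in control (adjusted p = 0.120 in limma). RAP1B was at 105 and 97.0 FPKM in miRs and 90.3 and 82.6 FPKM in control (adjusted p = 0.352). For the ligand VEGFC, at 108 and 25.1 FPKM in miRs and 40.4 and 30.7 FPKM in control, the groups overlapped and miRs replicate 2 lay below both controls.

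Partners of ephrins and Eph receptors were split. Of 23 listed, 18 were tested, 6 lower and 5 higher without overlap, beside 30.0% and 29.5% of all tested genes. None passed an adjusted p of 0.05 in limma, with 5 at an unadjusted p under 0.05, beside 24.2% of all tested genes, and a median log2 difference of -0.04. ADAM12, a metalloprotease that can act on ephrins, was at 6.64 and 9.16 FPKM in miRs and 3.03 and 1.82 FPKM in control (log2 difference 1.39 ± 0.26, adjusted p = 0.0877 in limma). GIT1, an adaptor that B-type ephrins recruit, was at 23.0 and 24.6 FPKM in miRs and 15.7 and 15.7 FPKM in control (adjusted p = 0.0986). RASA1, a Ras inhibitor that binds EPHB2, was at 16.3 and 17.8 FPKM in miRs and 27.7 and 25.4 FPKM in control (adjusted p = 0.0984). PTPN11, a phosphatase, was at 27.1 and 36.3 FPKM in miRs and 50.6 and 45.8 FPKM in control (adjusted p = 0.156). The metalloprotease ADAM10, which cuts A-type ephrins, was at 42.6 and 40.2 FPKM in miRs and 46.7 and 44.9 FPKM in control (adjusted p = 0.510).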

How the data were processed

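RNA of 4 MRC5 libraries was analysed, 2 labelled as treated with miRs and 2 as untreated. The deposited values are FPKM, 1 file per library, per the file headers. The build is hg19 and the tools are Cuffdiff 2.2.1, TopHat2 2.1.1, SAMtools 0.1.18 and Bowtie2 2.2.8, per the submitters' processing notes, which give no role for each. Annotation, strand setting and library scaling are not given in sources used here, and the number of reads is unknown. FPKM is not a count, so precision rests on the 2 libraries per group.

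Genes whose 4-library mean reached 1 FPKM were fitted on the log2(FPKM + 1) scale, which understates fold changes of low genes, using limma 3.58.1 (R 4.3.3) with a variance trend, 2-sided, and Benjamini-Hochberg adjustment over all of them at 0.05. The test was tested on simulated data. Groups were said not to overlap where the lowest value of 1 group exceeded the highest of the other. Values in every library are given for the 2 members with the highest mean in each class and for tested members whose groups do not overlap and differ by at least 0.5 (log2). From each partner list, the 4 genes with the smallest p and abundant genes against the majority are given. Genes named outside these rules were chosen after their values were seen, as was the microRNA seed. Members and gene lists were chosen with earlier results of these data known. The alternatives tried were median-of-ratios and quantile scaling, a pseudocount of 0.1, a minimum of 5 FPKM or none at all, a block for replicate number, no variance trend, each library left out, and, chosen after seeing the data, a threshold of 0.1.

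For each tested gene the longest 3′ UTR was read by symbol from GENCODE 29 (GRCh38, not the build of the files), 91.1% of tested genes having one of at least 20 bases. Each 7-base word found in at least 100 of these UTRs was ranked by its regression t across genes, with UTR length and GC share as covariates (Python 3.11.15, numpy 2.4.6, pandas 2.3.3). Promoters and microRNA sequences are from RefSeq (GRCh38.p14). Some sequence stretches are not reported here.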

Additional observations from a re-analysis of the deposited data

How the results depend on the processing

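In limma the count of all called genes, 29, was 0 with no minimum FPKM (3338 at an unadjusted p under 0.05), 6 with quantile normalization, 99 with the replicate number as a block and 854 at an adjusted p under 0.1. Leaving out 1 library moved it between 0 and 3746. Called members, 0 of 32, became 5 at 0.1 and between 0 and 14 without 1 library. The replicate block called 0 members and so changed no call among them. With only 2 pairs the numbers are not known to pair the libraries (correlation of same-numbered deviations across genes 0.20). Members whose groups did not overlap, 8 higher and 8 lower, were 13 and 13 of 50 with no minimum FPKM (25.7% and 25.4% of all genes then tested), 4 lower of 22 at a minimum of 5 FPKM (30.4%), and, without 1 library, between 10 and 19 higher and between 8 and 18 lower of 32, since 2 libraries against 1 separate more easily. The 19 higher came without miRs replicate 1 (42.7% of all genes) and the 18 lower without miRs replicate 2 (44.5%). The median log2 difference of members, 0.08, lay between -0.20 and 0.16 without 1 library.

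The 16 members whose groups did not overlap kept their direction under every alternative run. Leaving out 1 library could not have turned them, so those fits lend their direction no support. EFNA4, EFNB3 and SEMA3A, whose groups overlapped, kept theirs as well. Leaving out 1 library turned 13 members, whose log2 differences then ranged from -0.23 to 0.12 (EFNA5), -0.0745 to 0.20 (EFNB1), -0.13 to 0.41 (EPHA2), -0.67 to 0.21 (EPHB3), -0.24 to 0.23 (EPHB4), -0.20 to 0.37 (NRP2), -0.60 to 0.42 (PLXNB1), -0.56 to 0.0377 (PLXNB2), -0.40 to 0.42 (PLXND1), -0.20 to 0.60 (SEMA3B), -0.23 to 0.60 (SEMA3C), -0.0181 to 0.70 (SEMA3D) and -0.22 to 0.42 (SEMA4C). PLXND1 was also at -0.0013 with quantile normalization. The cause was not tested. Depth is unknown, so no counting interval can be given for members near 0 FPKM.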

Other observations

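Of 29 netrin, Slit, Robo, RGM and related genes 12 were tested in limma, 0 passed an adjusted p of 0.05, and 5 had an unadjusted p under 0.05 (2 higher and 3 lower in miRs, beside 11.2% and 13.0% of all tested genes). NTN4, a netrin of basement membranes, was at 3.40 and 8.94 FPKM in miRs and 19.8 and 32.4 FPKM in control, a log2 difference of -1.996 ± 0.47 (SE, n = 2 each; adjusted p = 0.108 in limma). The netrin receptor NEO1 was at 15.0 and 16.0 FPKM in miRs and 30.2 and 24.8 FPKM in control (adjusted p = 0.0912 in limma), and the Slit receptor ROBO1 at 7.50 and 10.1 FPKM in miRs and 15.4 and 16.3 FPKM in control (adjusted p = 0.102 in limma). SRGAP2, which acts below Robo receptors, was at 16.1 and 13.5 FPKM in miRs and 9.78 and 10.2 FPKM in control (adjusted p = 0.139 in limma). RGMB, a ligand of NEO1 and the most abundant gene of the list, was at 109 and 32.7 FPKM in miRs and 146 and 84.1 FPKM in control, with the groups overlapping.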
